A study of Homo sapiens with 6 samples.

Results

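The genes described here build the cornified envelope and mark the last stages of keratinocyte differentiation. They are 38 named genes for envelope precursors, transglutaminases, protease inhibitors, barrier lipid enzymes and mucosal differentiation proteins, chosen by name from outside the SPRR, keratin, S100 and kallikrein families. All 38 were on the array, through 45 of its 34127 gene probes, and 34 of them had a probe that could be tested, against 16821 tested genes in all. CAL-27 is an established human tongue squamous cell carcinoma line. One group of 3 samples (shXBP-1s) had been stably transduced with a short hairpin RNA against XBP-1s, the spliced, active form of the transcription factor XBP-1, and the other 3 (shCtrl) carried a control hairpin. Every sample was CAL-27 total RNA labelled with Cy3 on its own one-colour Agilent array. The sources used here do not say whether the samples were separate cultures, how many hairpins or clones were used, or what was done to the cells besides transduction, so the p-values measure the spread between these arrays, which may be technical.

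As a keratinocyte of a stratified epithelium leaves the basal layer, it replaces its plasma membrane with a shell of cross-linked protein. Plakins and involucrin are laid down first beneath the membrane, transglutaminases join them to small precursor proteins through covalent bonds, and a layer of ceramides is attached to the outside. Protease inhibitors and secreted proteins control how the dead cells are shed. The mucosa of the tongue uses much of the same machinery as skin, with some genes of its own such as CRNN, TMPRSS11D and RHCG, and well differentiated squamous carcinomas keep part of the programme.

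The knockdown itself was measured first. The XBP1 probe (NM_005080), for which it was not determined here whether it separates the spliced form, lay at 1.88, 1.85 and 1.87 in shCtrl and at -0.50, -0.54 and -0.52 in shXBP-1s, in log2 units relative to the 75th percentile of each array. Its log2 change was -2.39 ± 0.04 (SE, n = 3 against 3; limma, adjusted p = 2.81e-07). Between 82.1% and 84.8% of gene spots were well above background on each array, no spot was saturated, and the 75th percentile signal was 687.4 to 761.3 in shCtrl and 792.0 to 983.4 in shXBP-1s. The arrays carried 2 scan dates. Arrays that share a date are called a slide here, which the labels do not state. Of these slides, 1 held shCtrl replicates 2 and 3 and the other shCtrl replicate 1 with all 3 shXBP-1s arrays. All 10 squamous epithelial markers looked at were well above background on all 6 arrays. Of these, 5 were called higher in shXBP-1s, against 2.3% of all tested genes. Of the 5 fibroblast markers on the array with a tested probe, LUM and PDGFRA were called higher and PDGFRB lower, and their summed signal, in units of the 75th percentile, was 0.953 to 1.04 in shCtrl and 0.620 to 0.644 in shXBP-1s. The leukocyte markers had a summed signal of 4.39 to 6.27 in shCtrl and 3.05 to 3.29 in shXBP-1s. The part that these markers had in the results was not tested.

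Promoters of members that rose, passed only the p-value threshold or did not pass it are printed to let their sequence be read beside those values. The window runs from 250 bases before to 50 bases after a transcription start in the RefSeq annotation of GRCh38.p14, and 30 of the 38 members had one. The letters TGANTCA, the site of AP-1 factors, which are known to act at keratinocyte differentiation genes, are in capitals. The windows of SCEL (chr13:77535456-77535755, plus strand), IVL (chr1:152908296-152908595, plus strand), SBSN (chr19:35528262-35528561, minus strand), CRNN (chr1:152414214-152414513, minus strand) and TMPRSS11D (chr4:67883953-67884252, minus strand) are given 5′ to 3′ on the gene's strand. They were picked after the values were seen.
SCEL: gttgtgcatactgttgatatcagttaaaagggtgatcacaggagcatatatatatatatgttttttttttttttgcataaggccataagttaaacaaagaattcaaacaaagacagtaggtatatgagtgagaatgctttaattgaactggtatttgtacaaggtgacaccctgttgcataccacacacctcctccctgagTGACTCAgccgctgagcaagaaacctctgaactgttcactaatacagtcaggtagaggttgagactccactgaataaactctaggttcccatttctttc
IVL: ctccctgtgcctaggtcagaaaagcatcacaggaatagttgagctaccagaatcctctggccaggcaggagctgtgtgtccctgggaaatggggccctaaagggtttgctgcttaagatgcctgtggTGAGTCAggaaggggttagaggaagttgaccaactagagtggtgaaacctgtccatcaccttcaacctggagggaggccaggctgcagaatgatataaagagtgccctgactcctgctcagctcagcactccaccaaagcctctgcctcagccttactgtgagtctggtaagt
SBSN: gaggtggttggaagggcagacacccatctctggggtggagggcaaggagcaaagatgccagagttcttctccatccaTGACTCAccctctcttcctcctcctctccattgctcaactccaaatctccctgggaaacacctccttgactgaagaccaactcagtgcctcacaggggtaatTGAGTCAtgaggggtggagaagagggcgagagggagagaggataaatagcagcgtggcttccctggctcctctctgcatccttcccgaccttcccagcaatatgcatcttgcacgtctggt
CRNN: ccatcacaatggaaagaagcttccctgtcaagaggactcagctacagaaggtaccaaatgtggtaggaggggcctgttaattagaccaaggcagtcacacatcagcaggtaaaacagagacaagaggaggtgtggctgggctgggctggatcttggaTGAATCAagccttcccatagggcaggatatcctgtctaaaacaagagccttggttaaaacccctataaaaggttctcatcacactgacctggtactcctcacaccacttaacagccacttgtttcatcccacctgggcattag
TMPRSS11D: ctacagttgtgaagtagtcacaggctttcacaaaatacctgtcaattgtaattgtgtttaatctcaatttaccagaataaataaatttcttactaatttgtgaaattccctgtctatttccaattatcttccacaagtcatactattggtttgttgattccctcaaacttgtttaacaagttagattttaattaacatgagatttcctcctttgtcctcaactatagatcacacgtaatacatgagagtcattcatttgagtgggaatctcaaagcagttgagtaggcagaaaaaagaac

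On either strand, TGANTCA stood in a window of 12 of the 30 members (40.0%), namely ALOXE3, CRNN, DMKN, ECM1, EMP1, FLG, FLG2, IVL, KRTDAP, RPTN, SBSN and SCEL, and of 9.37% of the 27305 genes in the table. Counted from the transcription start, the first base of the match lay at -49 in SCEL, -123 in IVL and -93 in CRNN, and SBSN held matches at -173 and -71. No match was found in this window of TMPRSS11D. The median log2 change was 0.10 over the 10 tested members with the letters and 0.06 over the 16 tested members without them, with 1 gene called higher in the former and 2 in the latter. The GACGTG core of the element that XBP-1s binds was in a window of 4 members, CERS3, CNFN, SBSN and TGM3 (13.3%, against 9.34% of all genes). The ERSE, searched as CCAAT and CCACG with 9 bases between, was found in no member and in 0.0916% of genes. The CCACG end can share bases with GACGTG on the other strand. These matches are descriptions of the letters alone.

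In shXBP-1s cells, 6 of the 34 tested members were called higher (3 after normexp background correction, described further on), meaning an adjusted p below 0.05 and at least a 2-fold difference. They were TMPRSS11D, RHCG, SCEL, ABCA12, PI3 and TGM1. TMPRSS11D and IVL entered the test through the shXBP-1s arrays alone, and among the 32 members well above background on all 6 arrays, 5 were called higher. A single member, CALML5, was called lower. Among all tested genes, 2.3% were called higher and 2.88% lower. Without the fold requirement, 15 members were higher, against 18.9% of all tested genes, and 4 were lower, against 27.5%. With slide as a term these counts were 12 and 4, since ALOXE3, CSTB, IVL, LCE3E and SPINK5 no longer passed, while CDSN and LCE3A did. The median log2 change was 0.10 over the 34 members, with or without the floor on the TMPRSS11D controls described below, and -0.04 over all tested genes. The arrays of the groups did not overlap for 15 members that were higher and 6 that were lower in shXBP-1s (24.3% and 32.2% of all tested genes). In such bulk RNA, a change in the share of differentiated cells and a change of RNA per cell cannot be told apart. A single probe represented 34 of the 38 members, and where there were several the brightest tested one stands for the gene.

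**Figure D1:**
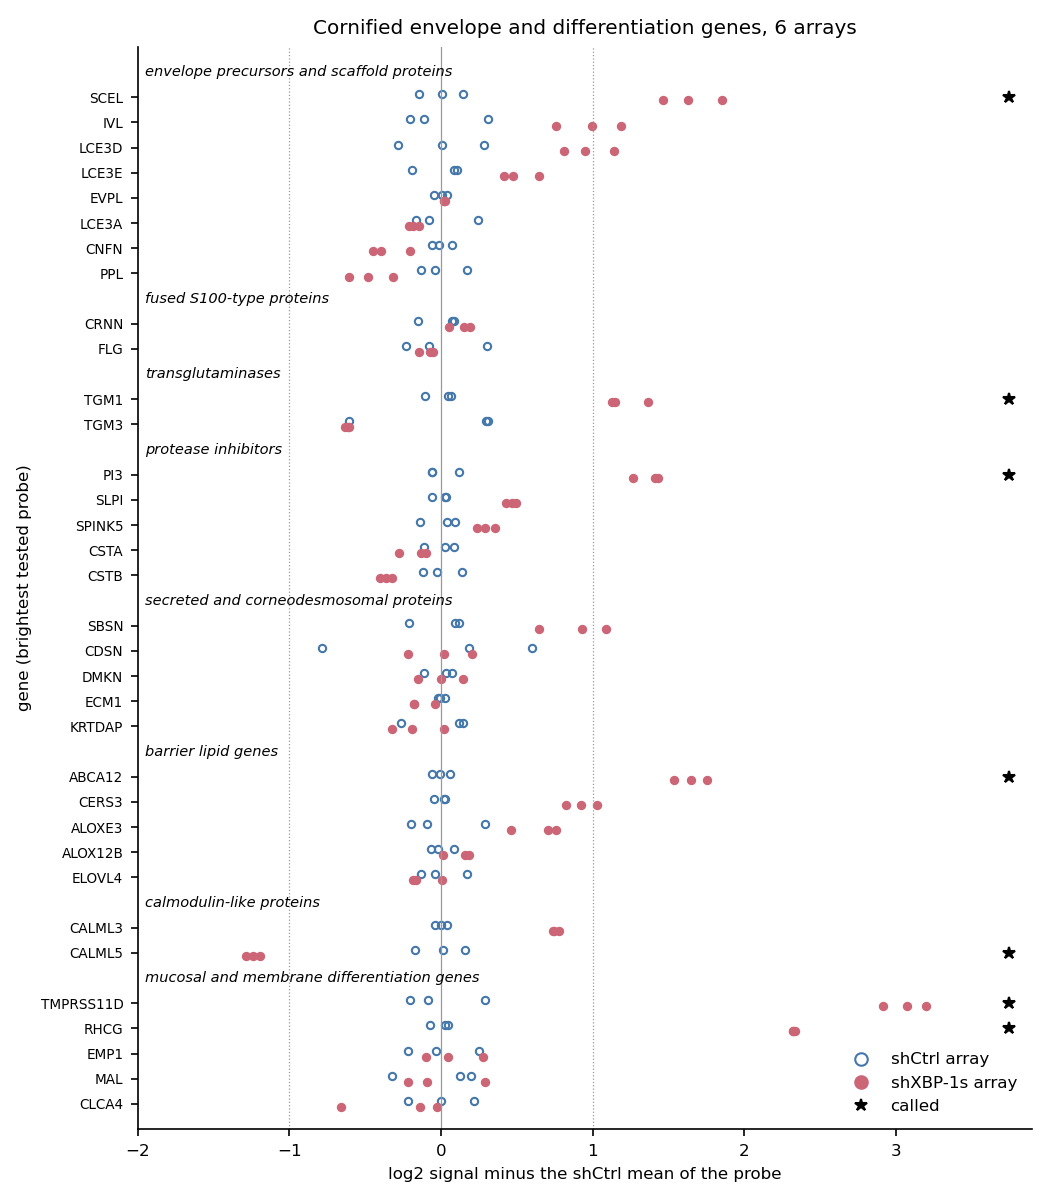
Log2 signal of the 34 tested members on each array (horizontal axis, as the difference from the probe's shCtrl mean), grouped by role, with open blue circles for the 3 shCtrl arrays, filled red circles for the 3 shXBP-1s arrays and stars for called genes. Stars mark 7 genes, of which CALML5 alone lies to the left of zero, while most other members lie inside the dotted lines at a 2-fold difference.

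The mucosal and membrane genes included the member with the largest fold change among those called. TMPRSS11D, a serine protease of the airway and oral epithelium (NM_004262), was not well above background on any shCtrl array, where it read -7.62, -7.51 and -7.13, and was well above it on all shXBP-1s arrays, at -4.50, -4.35 and -4.22. The groups were far apart. With control values raised to at least the lowest signal well above background on their array, the difference was 6.87-fold. Without that floor limma gave an adjusted p of 8.73e-06. Because TMPRSS11D passed the filter only through the group where it was high, that p is in part set by the filter. After normexp correction its log2 value was -0.23, 0.19 above the median of all probes there. RHCG, an ammonium transporter of differentiated squamous mucosa (NM_016321), read -1.96, -1.84 and -1.85 in shCtrl and 0.45, 0.44 and 0.44 in shXBP-1s. The 3 shXBP-1s arrays were almost equal and all lay above every control, a log2 change of 2.33 ± 0.05 (SE, 5.02-fold, adjusted p = 4.28e-07), which ranked 40 of 16821 genes from the top. The other members of this group did not pass the test, and their arrays overlapped. The log2 difference was 0.08 ± 0.13 for EMP1, a small membrane protein, -0.01 ± 0.19 for MAL, a raft protein of apical transport, and -0.27 ± 0.23 for CLCA4, of the chloride channel accessory family.

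**Figure D2:**
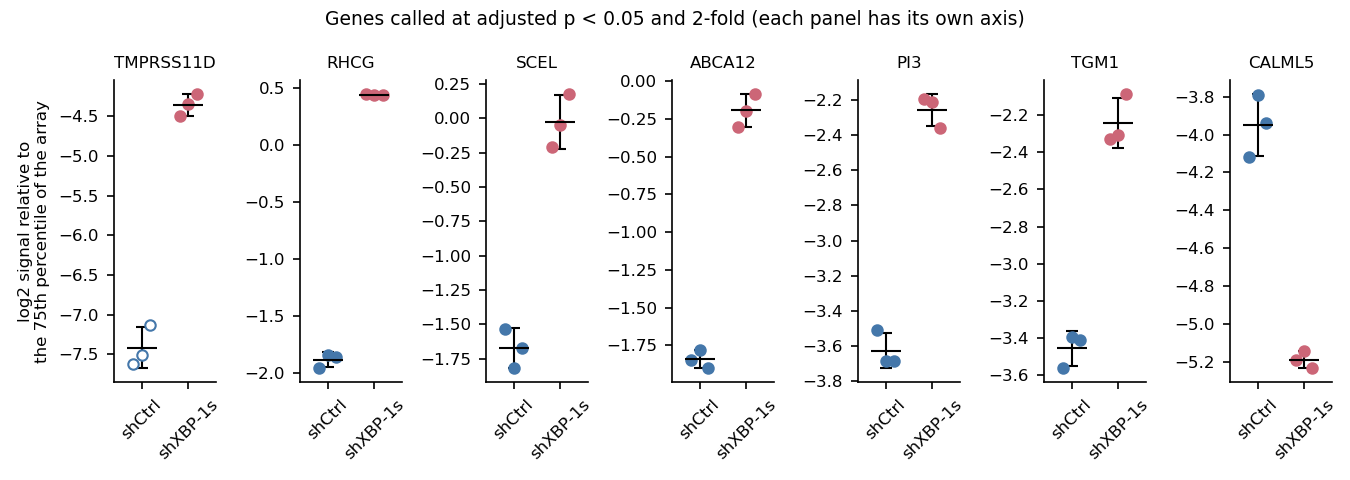
Log2 signal of the 7 called members relative to the 75th percentile of each array, one panel and vertical axis per gene, with a point per array and a bar for mean ± SD (n = 3). Open points mark arrays on which the probe was not well above background, as on the 3 shCtrl arrays of TMPRSS11D, and in no panel do the groups overlap.

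Among the 8 envelope precursors and scaffold proteins, 4 passed the p-value threshold in the upward direction and 2 in the downward. Over all tested genes the shares were 18.9% and 27.5%. SCEL, sciellin, a precursor cross-linked by transglutaminases (NM_144777), rose from -1.53, -1.82 and -1.67 to -0.21, -0.05 and 0.18. Every shXBP-1s array lay above every control, with a log2 change of 1.65 ± 0.11 (3.13-fold, adjusted p = 1.59e-05). IVL, involucrin, the classic precursor of the envelope (NM_005547), read -6.72, -7.14 and -7.23 in shCtrl, where it was well above background on 1 array, and -5.84, -6.03 and -6.27 in shXBP-1s. Its groups did not overlap and its log2 change of 0.98 ± 0.22 (limma, adjusted p = 0.00801) was just under 2-fold. However, 2 of its 3 control values were not well above background. After normexp correction the change was -0.81, where the median of all probes was -0.41. As IVL passed the filter only through the group where it was high, that p is in part set by the filter. The plakins, which form the first scaffold under the membrane, gave different values. PPL, periplakin, was lower in shXBP-1s, from 0.36, 0.06 and 0.15 to -0.13, -0.29 and -0.42, a log2 change of -0.47 ± 0.10 (adjusted p = 0.00549), whereas EVPL, envoplakin, its partner, lay between 1.04 and 1.13 in shCtrl and between 1.11 and 1.12 in shXBP-1s (0.02 ± 0.04, adjusted p = 0.723). CNFN, cornifelin, was also lower, by -0.35 ± 0.07 (adjusted p = 0.00593).

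The 3 late cornified envelope proteins of the LCE3 group, small precursors added at the end of envelope assembly, gave different values. LCE3D read -2.24, -1.97 and -2.53 in shCtrl and -1.44, -1.10 and -1.30 in shXBP-1s. It was higher on every shXBP-1s array, by 0.97 ± 0.14 (adjusted p = 0.00104). LCE3E, its neighbour on the chromosome, was higher by 0.51 ± 0.12 (adjusted p = 0.00880). This turned to -0.45 after normexp correction, where the median of all probes was -0.41. LCE3A differed by -0.18 ± 0.13 (adjusted p = 0.308) with overlapping arrays. Whether probes of such close relatives share targets was not tested.

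The fused S100-type proteins, large proteins of the granular layer that include filaggrin, were for the most part not measurable on these arrays. FLG2, HRNR and RPTN were not well above background on any of the 6 arrays and could not be tested. CRNN, cornulin, a marker of squamous mucosa, read -4.15, -4.38 and -4.14 in shCtrl and -4.03, -4.07 and -4.17 in shXBP-1s (0.13 ± 0.10, adjusted p = 0.329). FLG, filaggrin, differed by -0.09 ± 0.16 on its brightest probe (adjusted p = 0.695). Neither gene passed limma's test, adjusted or not, and in both the groups overlapped.

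The transglutaminases, which make the cross-links of the envelope, gave different values. TGM1, the membrane-bound enzyme of this family (NM_000359), rose from -3.56, -3.39 and -3.41 to -2.33, -2.31 and -2.09. All 3 shXBP-1s arrays lay above the controls, a log2 change of 1.21 ± 0.09 (2.32-fold, adjusted p = 2.60e-05). TGM3, the form of the hair follicle and late epidermis, read -6.23, -5.32 and -5.33 in shCtrl and -6.24, -6.24 and -6.26 in shXBP-1s, so that shCtrl replicate 1 lay with the shXBP-1s arrays and the other controls above them. Its log2 change was -0.62 ± 0.25 (adjusted p = 0.0877), and -0.01 with slide as a term. TGM5 was well above background on no shCtrl array and on 2 of the 3 shXBP-1s arrays and was not tested.

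Of the 5 protease inhibitors, which restrain the proteases that act on the envelope and on shedding cells, 3 were higher and 1 lower by adjusted p. Over all tested genes 18.9% were higher and 27.5% lower by that measure. PI3, elafin, an elastase inhibitor that is itself cross-linked into the envelope (NM_002638), rose from -3.51, -3.69 and -3.68 to -2.20, -2.21 and -2.36. The groups were clearly apart, with a log2 change of 1.37 ± 0.08 (2.58-fold, adjusted p = 9.64e-06). SLPI, the secretory leukocyte protease inhibitor, which shares the WAP domain with PI3, read 1.87, 1.95 and 1.96 in shCtrl and 2.40, 2.36 and 2.43 in shXBP-1s. Its change was smaller but of low spread, 0.47 ± 0.05 (adjusted p = 0.000119). SPINK5, the inhibitor of kallikreins known as LEKTI, was higher by 0.29 ± 0.09 on its brightest probe (adjusted p = 0.0287). That value was -0.42 after normexp correction, where the median of all probes was -0.41. The cystatins, inhibitors of cysteine proteases, were on the other side. CSTB was lower, going from 4.50, 4.59 and 4.75 to 4.21, 4.25 and 4.29 (-0.36 ± 0.07, adjusted p = 0.00405), and CSTA, an envelope component, differed by -0.17 ± 0.07 (adjusted p = 0.0870).

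Of the barrier lipid genes, 3 of 5 were higher by adjusted p, against 18.9% of all tested genes. The group median of 0.64 was the value of ALOXE3. ABCA12, the transporter that loads lipids into lamellar granules (NM_173076), rose from -1.85, -1.78 and -1.90 to -0.30, -0.19 and -0.08. The groups did not overlap and the log2 change was 1.65 ± 0.07 (3.13-fold, adjusted p = 2.63e-06). CERS3, the synthase of ceramides with very long chains, was higher on its brightest probe, from -1.02, -1.08 and -1.01 to -0.22, -0.12 and -0.01 (0.93 ± 0.06, adjusted p = 1.73e-05). Its other probe was lower, by -0.59 ± 0.08 (limma, adjusted p = 0.000675). The lipoxygenases act in sequence on the ceramide that is joined to the envelope. ALOXE3 was higher by 0.64 ± 0.15 (adjusted p = 0.00899), which became -0.36 after normexp correction, 0.05 above the median of all probes there. ALOX12B, which acts before ALOXE3 and is its neighbour in the genome, differed by 0.12 ± 0.09 (adjusted p = 0.331). ELOVL4, which lengthens the fatty acids of these lipids, differed by -0.11 ± 0.10 (adjusted p = 0.387).

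The calmodulin-like genes, calcium-binding proteins of differentiated keratinocytes that lie next to each other in the genome, went in opposite directions. CALML3 was higher in shXBP-1s, going from -1.25, -1.32 and -1.28 to -0.50, -0.54 and -0.54, a log2 change of 0.76 ± 0.05 (adjusted p = 1.19e-05). CALML5, the only member called lower (NM_017422), fell from -4.12, -3.79 and -3.94 to -5.19, -5.14 and -5.23. In both genes the arrays of the groups were apart, and the CALML5 change was -1.24 ± 0.11 (2.36-fold, adjusted p = 7.60e-05).

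Among the 5 secreted and corneodesmosomal proteins, none reached 2-fold. On the brightest probe of each gene, SBSN, suprabasin, was the only one to pass limma's test with or without adjustment. It read -6.28, -6.24 and -6.58 in shCtrl and -5.72, -5.44 and -5.28 in shXBP-1s, a log2 change of 0.89 ± 0.18 (adjusted p = 0.00498). That change was -0.72 after normexp correction, where the median of all probes was -0.41. KRTDAP and DMKN, which lie beside SBSN in the genome and are likewise secreted by suprabasal cells, differed by -0.16 ± 0.17 and, on the brightest probe, by -0.00 ± 0.08. ECM1, a secreted matrix protein, differed by -0.13 ± 0.07 (adjusted p = 0.196). CDSN, corneodesmosin, the adhesive of cornified cells, read -6.57, -5.19 and -5.61 in shCtrl and -5.77, -5.59 and -6.01 in shXBP-1s, so its controls spread over more than the difference between the group means. The lowest control was shCtrl replicate 1, which shared its slide with the shXBP-1s arrays. With slide as a term the log2 change of CDSN was 0.79.

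The change of one gene was set against that of its relative in 10 pairs, chosen after the values were seen. In 9 of them the arrays of the groups did not overlap, which gives the smallest p that 3 against 3 arrays allow in a two-sided exact permutation test (p = 0.1, adjusted p = 0.111 over the 10), so no pair could pass 0.05. Of single tested genes, 24.3% were higher and 32.2% lower in shXBP-1s without overlap, and the share among other pairs was not determined. The difference between the log2 changes was 2.00 for CALML3 over CALML5 (95% interval 1.66 to 2.33) and 1.83 for TGM1 over TGM3 (1.10 to 2.56). It was 1.15 for LCE3D over LCE3A (0.49 to 1.81), 1.05 for SBSN over KRTDAP (0.45 to 1.65) and 0.90 for PI3 over SLPI (0.60 to 1.21), which turned to -0.20 after normexp. SBSN over KRTDAP was 0.14 with normexp and 0.16 with quantile normalization after it. For PPL against EVPL the difference was -0.49 (-0.82 to -0.16). The pair with overlapping arrays was CSTA and CSTB, at 0.19 (-0.11 to 0.49, exact permutation p = 0.3), and -0.0094 with slide as a term. SBSN over DMKN was 0.89 (0.51 to 1.27) and turned to -0.84 after normexp.

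Several probes were present for 4 members, and they did not always agree. Both CERS3 probes carry the same accession (NM_178842), yet the brighter was higher by 0.93 and the other was lower, going from -3.11, -3.26 and -3.20 to -3.76, -3.71 and -3.88, a log2 change of -0.59 ± 0.08 (adjusted p = 0.000675). The direction for CERS3 therefore depends on the probe. SPINK5 was higher on each of its 3 probes, by 0.29, 0.44 and 1.55, and only the last of these was called, on a probe that was well above background on 1 of 3 shCtrl arrays. As that probe passed the filter only through the group where it was high, its call is in part set by the filter. The DMKN probes differed by -0.00, 0.21 and 0.05, of which 0.21 had an adjusted p of 0.0459. Of the 3 FLG probes, 1 was not well above background on any array, and the other 2 differed by -0.09 and 0.24 without passing.

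**Figure D3:**
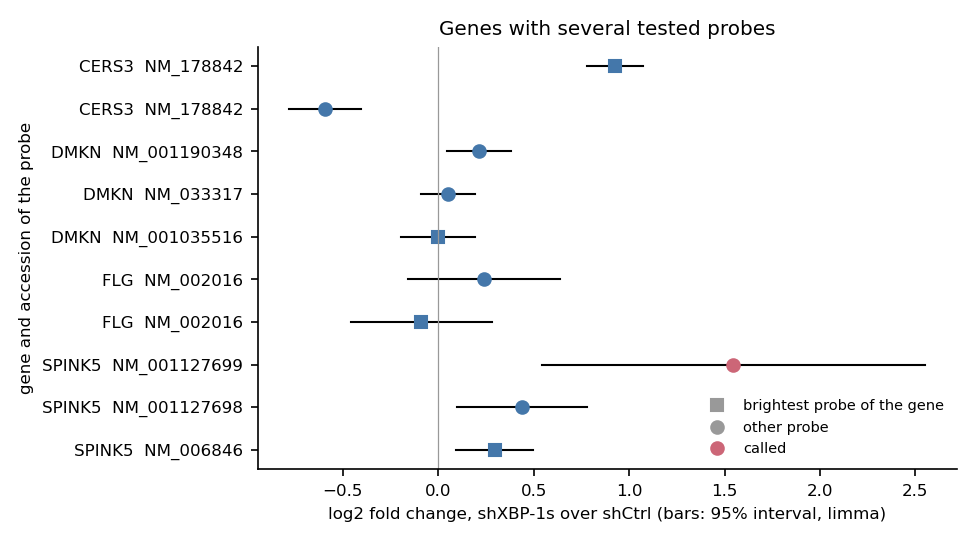
Log2 fold change of shXBP-1s over shCtrl for every tested probe of the 4 members with several probes, with the 95% interval from limma; squares mark the brightest probe of a gene and red marks a called probe. The CERS3 probes lie on opposite sides of zero at 0.93 and -0.59, and the called SPINK5 probe has the widest interval.

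Several of these values depended on the background treatment. Agilent's processed signal, used here, has background already subtracted, and with normexp correction of the median spot and local background signals (offset 50) the median of all tested probes moved from -0.02 to -0.41. Under it RHCG (1.84), SCEL (1.21) and ABCA12 (1.19) were still called. PI3 (0.35), TGM1 (0.34) and CALML5 (-1.11) were not, and TMPRSS11D read -0.23. Relative to that median IVL (-0.39) and SBSN (-0.31) lay below 0, LCE3E (-0.04) and SPINK5 (-0.00) lay close to it, and TMPRSS11D (0.19) and ALOXE3 (0.05) lay above it. With quantile normalization after normexp, the all-probe median was -0.00 and the same 3 genes were called, while TMPRSS11D read 0.58, PI3 0.80, TGM1 0.75 and CALML5 -0.43. With that step IVL read 0.10, SBSN 0.13, LCE3E 0.20, SPINK5 0.18 and ALOXE3 0.32. With slide as a term, which rests on shCtrl replicate 1 as the only control, all 7 were called, and the 6 that were measured in both groups ran from -1.07 for CALML5 to 2.40 for RHCG.

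**Figure D4:**
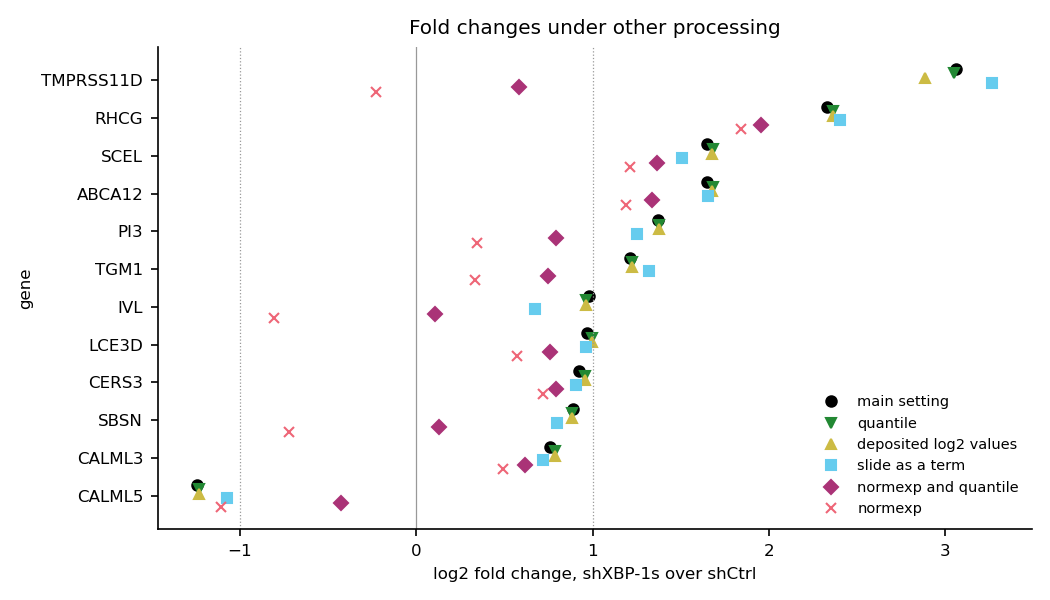
Log2 fold change of the 7 called members and 5 that lay under 2-fold, under the main setting and 5 other ways of processing (symbols); dotted lines mark 2-fold. The values of RHCG, SCEL and ABCA12 stay right of the 2-fold line throughout, whereas TMPRSS11D, IVL and SBSN fall below zero with normexp alone.

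Other genes of the same machinery were taken from a list. Of 56 further envelope and barrier genes listed, 40 were tested, 4 were called higher and 2 lower, and 16 and 6 passed by adjusted p, with a median of 0.11. Over all tested genes the shares were 2.3% and 2.88% called, and 18.9% and 27.5% by adjusted p. TMPRSS11E, a protease of the same family as TMPRSS11D with 4 genes between them, was well above background only in shXBP-1s. With control values raised as for TMPRSS11D it was 8.56-fold higher. Normexp, however, gave -0.10, which is 0.32 above the median of all probes there, and quantile normalization after normexp gave 0.73. MUC21, a mucin of squamous mucosa, was 2.93-fold higher with control values raised in this way. It read -0.65 with normexp (-0.24 relative to that median) or 0.25 with that added step. Both passed the filter only through the group where they were high. NIPAL4 and SLC27A4, both of barrier lipid handling, rose by 1.48 ± 0.06 and 1.33 ± 0.10. NIPAL4 read 1.38 with normexp and 1.37 with quantile normalization after it. SLC27A4 read 0.02 with normexp, 0.43 above the median of all probes there, and 0.60 with quantile normalization after it. The genes called lower were PADI3 (-1.63 ± 0.11), which converts arginine to citrulline in proteins such as filaggrin, and CST6 (-1.51 ± 0.04), an inhibitor of the proteases that process transglutaminases. With quantile normalization after normexp, PADI3 read -0.80 and CST6 -1.43.

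Of 30 regulators of terminal differentiation, all tested, MAF was called higher (1.88 ± 0.11) and ELF3 lower (-1.27 ± 0.08), where 2.3% and 2.88% of all tested genes were called. With normexp MAF read 0.61, 1.02 above the median of all probes there, and was not called, while ELF3 (-1.17) was. With quantile normalization after normexp, MAF read 1.08 and ELF3 -1.14. By adjusted p, 9 were higher and 7 were lower (18.9% and 27.5% of all tested genes), with a median of 0.02 over the list. The basal layer genes, which mark the opposite end of the programme, were looked at as well. TNC (1.70 ± 0.09), KRT14 (1.58 ± 0.07) and KRT5 (1.43 ± 0.04) were among those called higher. KRT14 and KRT5 were also among the squamous epithelial markers. Of 16 tested, 11 were higher and 2 lower by adjusted p, and the median was 0.50. The difference between these lists and the members was not tested.

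**Figure D5:**
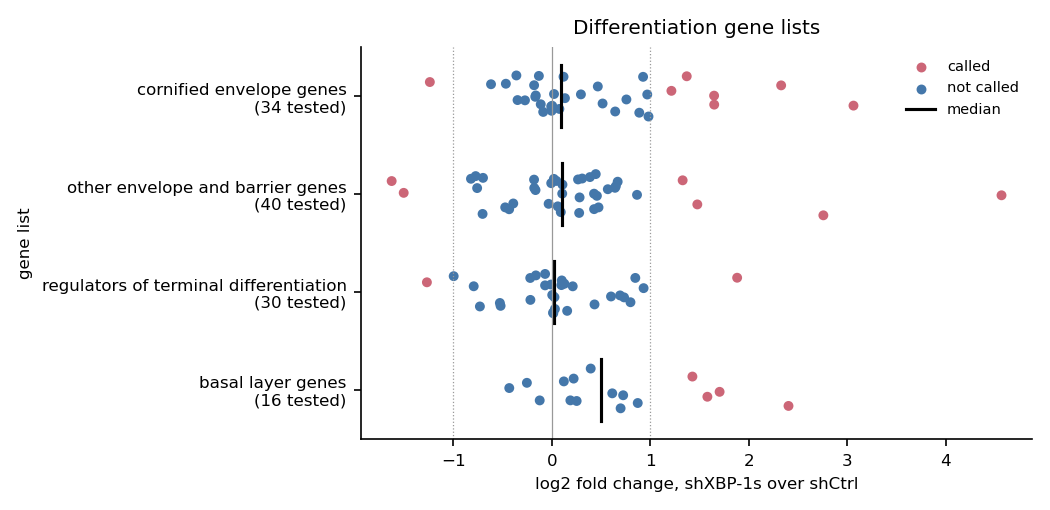
Log2 fold change of shXBP-1s over shCtrl for each tested gene (points, with vertical jitter for display) of the cornified envelope genes and 3 further lists; red points were called and the bar is the list median. The medians are 0.10, 0.11, 0.02 and 0.50 from top to bottom, and called genes lie on both sides of zero in all lists but the basal one.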

How the data were processed

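Total RNA of 6 CAL-27 samples, 3 shCtrl and 3 shXBP-1s as named in the labels, was measured on one-colour Agilent arrays. The deposited scanner files hold spot intensities from Feature Extraction 11.0.1.1, in which the authors' processed intensity is background-subtracted. The deposited value table holds log2 values that the authors normalized, with RMA named in the submitters' processing notes, and served as an alternative.

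Each array's log2 processed intensity was taken relative to its 75th percentile over non-control spots. Flagged spots were left out and spots of a probe averaged. A probe well above background on all arrays of a group was tested (27624 of 34127) with limma 3.58.1 (lmFit, eBayes with trend) in R 4.3.3, two-sided, with Benjamini-Hochberg adjustment over all tested probes. Genes past an adjusted p of 0.05 whose difference was 2-fold or more were called. RefSeq accessions gave symbols to 25771 probes. The members, lists, pairs and printed promoters were chosen with earlier results of these data known. Every member may be named, and from each other list up to 5 called genes per direction. One gene of these lists is not reported here. The fit was tested on simulated data. Each alternative changed 1 choice of background, normalization, filter, test, threshold, slide, replicate block, probe or samples, except that normexp was also run together with quantile normalization. The number of arrays limits precision: an exact permutation test of 3 against 3 cannot go below p = 0.1.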

Additional observations from a re-analysis of the deposited data

How the results depend on the processing

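The 7 called members were called with quantile normalization, the deposited values, slide as a term and each array left out. Among probes well above background on all 6 arrays TMPRSS11D was not tested, and 5 members higher and 4 other envelope genes were called. With normexp and with normexp plus quantile normalization, members called higher went from 6 to 3 and 3, lower from 1 to 0 and 0, probes from 1354 to 473 and 357, and other envelope genes from 6 to 3 and 2; regulators went from 2 to 1 with normexp. Without a fold minimum, members were 15 and 4, probes 11516, other envelope genes 22, regulators 16 and basal genes 13. The member median of 0.10 was -0.42 with normexp, where that of all probes was -0.41, 0.058 with normexp plus quantile, 0.049 with no filter and with all 6 arrays above background, and 0.18 with slide. Signal over background limits TMPRSS11D and IVL, which were well above it on 0 and 1 of 3 shCtrl arrays. The cause of these differences was not tested.

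Under normexp, before allowing for its shift of all probes, signs turned for IVL (-0.81), LCE3E (-0.45), CRNN (-0.65), SPINK5 (-0.42), CDSN (-0.80), SBSN (-0.72), DMKN (0.11), ALOX12B (-0.61), ALOXE3 (-0.36), TMPRSS11D (-0.23), TMPRSS11E (-0.10) and MUC21 (-0.65). DMKN and MAL, both near 0, read 0.040 and 0.00048 with normexp plus quantile, 0.054 and 0.0030 with quantile, 0.054 and 0.0028 with the deposited values, and 0.11 and 0.31 with slide, where ELOVL4 read 0.020 and EMP1 -0.17. The mean over probes gave 0.075 for FLG and 0.087 for DMKN.

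Leaving out 1 array at a time gave 6 to 9 members called higher, 1 called lower, a member median of 0.088 to 0.16, 1275 to 1750 probes and 2 to 5 regulators. The member median was 0.16 without shCtrl replicate 1 and also without shXBP-1s replicate 1, and the 5 regulators came without shCtrl replicate 1. The ranges crossed 0 for CDSN (-0.39 to 0.30), DMKN (-0.078 to 0.072), EMP1 (-0.032 to 0.20), EVPL (-0.0016 to 0.042), FLG (-0.20 to 0.065) and MAL (-0.17 to 0.096).

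The labels do not say whether the replicate numbers pair the samples, which were treated as unpaired. Deviations of same-numbered arrays correlated at -0.02, 0.12 and -0.12, and those of differently numbered arrays at -0.13 to 0.12. So few values cannot decide whether the samples were paired. With the replicate number as a block, 1381 probes, 6 members higher and 1 lower were called.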

Other observations

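Of the members, 9 lie in the epidermal differentiation complex of chromosome 1, here the stretch from S100A11 to S100A1, which was chosen after the values were seen. It holds 62 protein-coding genes, of which 50 were tested, 4 were called higher and 1 lower, and 21 and 7 passed by adjusted p. Over all tested genes 2.3% and 2.88% were called, and 18.9% and 27.5% passed by adjusted p. Whether the stretch differs from them was not tested. None of the 6 tested members there was called, though IVL, LCE3D and LCE3E were higher by limma's adjusted p. IVL entered the test through the shXBP-1s arrays alone. With normexp IVL read -0.81 and LCE3E -0.45, where the median of all probes was -0.41. Of the 14 LCE genes tested in the stretch, 7 were higher by adjusted p, with a median log2 change of 0.19 over the 14. CRCT1, a cysteine-rich protein gene of the same stretch, was called higher at 1.53 ± 0.29 (adjusted p = 0.00341).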
